A study of Rattus norvegicus with 12 samples.

Results

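A set of 7 genes commonly used to recognise astrocytes was followed through RNA from rat cortical cultures: Gfap, Vim, S100b, Aqp4, Slc1a2, Slc1a3 and Apoe. They were taken by their Ensembl rat identifiers, and all 7 were found among the 25424 genes of the deposited table. All 7 had a mean FPKM (fragments per kilobase of transcript, scaled to the mapped fragments of the library) of at least 1 over the 12 libraries and so were among the 12150 genes tested.

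The cultures came from cortex of Sprague-Dawley rat embryos at embryonic day 18 and were kept for 28 days in vitro in Neurobasal medium with B27. The medium of every group also held D,L-APV, a blocker of NMDA receptors, and every group received cycloheximide, which holds ribosomes on mRNA, at the end. For the last 24 h the cells were given either 100 nM of a synthetic rat Aβ1-42 preparation that includes oligomers or an equal volume of its HEPES buffer (vehicle). RNA was sequenced as total cytosolic RNA (total RNA) or as RNA that pelleted through a sucrose cushion (ribosome fraction), which gave 4 groups of 3 libraries, namely vehicle total, Aβ total, vehicle ribosome and Aβ ribosome. The libraries carry numbers from 1 to 12 in their titles, and these numbers name them here. Each run of 4 consecutive numbers (run 1, run 2 and run 3) holds 1 library of every group, but the labels do not say that a run shares a culture or a day. The study describes the sequencing of total and ribosome fractions as paired, but the labels do not state which total library goes with which ribosome library. The main tests between fractions therefore ignore that pairing, and a fit with the runs as a block is given in the closing section. The labels name the material as primary rat cortical neurons, and no sorting of cells is described.

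Astrocytes are the glial cells that surround synapses and vessels in the cortex. They take up glutamate released by neurons through membrane transporters, move water through channels in their end-feet, hold their shape with intermediate filaments, and secrete lipid particles and small signalling proteins. When tissue is injured they become reactive, and a rise in their filament proteins is the classical sign of that state. Cortical cultures made from embryos contain few astrocytes when they are plated, and astrocytes can divide in the dish over weeks. In bulk RNA, fewer astrocytes and less RNA per astrocyte cannot be told apart. Markers of neurons and other glia were not read here, because the table gives identifiers without gene names. The makeup of the cultures was therefore not determined, and the levels of the members alone do not give it.

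The RefSeq promoter table (GRCr8) held all 7 genes by symbol, and 3 of them, Gfap, S100b and Vim, have a single start there. Windows of 250 bases before to 50 after the start are printed for these 3 genes only, because a single start leaves 1 window per gene. The Gfap window lies at chr10:88361612-88361911 on the minus strand, the S100b window at chr20:12381032-12381331 on the minus strand and the Vim window at chr17:81577011-81577310 on the plus strand. Each is written 5′ to 3′ along its gene, and capitals mark matches on either strand to the TATA box (TATAAA), the CCAAT box (by its own letters), the GC box (GGGCGG), the core bound by AP-1 factors (TGANTCA) and the core bound by STAT factors (TTCNNNGAA), none of which contains another.
Gfap: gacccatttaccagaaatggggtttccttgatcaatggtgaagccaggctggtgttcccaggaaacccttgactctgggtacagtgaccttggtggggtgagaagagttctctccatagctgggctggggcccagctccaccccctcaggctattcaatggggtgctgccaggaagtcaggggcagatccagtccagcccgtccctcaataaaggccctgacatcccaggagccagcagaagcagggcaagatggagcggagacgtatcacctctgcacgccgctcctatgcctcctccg
S100b: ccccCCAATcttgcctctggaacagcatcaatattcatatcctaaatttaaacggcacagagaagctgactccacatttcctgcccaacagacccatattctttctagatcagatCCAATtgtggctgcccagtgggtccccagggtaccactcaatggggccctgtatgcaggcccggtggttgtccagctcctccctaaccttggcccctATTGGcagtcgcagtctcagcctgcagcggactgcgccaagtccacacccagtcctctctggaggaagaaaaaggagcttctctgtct
Vim: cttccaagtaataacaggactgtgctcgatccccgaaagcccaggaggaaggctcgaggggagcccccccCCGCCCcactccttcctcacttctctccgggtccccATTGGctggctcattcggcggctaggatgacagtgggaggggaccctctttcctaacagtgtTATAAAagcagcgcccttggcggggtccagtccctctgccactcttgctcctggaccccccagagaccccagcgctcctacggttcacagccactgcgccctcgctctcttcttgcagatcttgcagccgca
The Vim window held 1 TATA box, 1 CCAAT box and 1 GC box, and the S100b window held 3 CCAAT boxes. The Gfap window held none of the 5 motifs. Among all 33469 windows of this length in the table, 14.2% held the TATA box, 37.5% the CCAAT box, 33.1% the GC box, 7.33% the AP-1 core and 8.87% the STAT core. These matches describe the letters only, and no binding was measured.

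Depth differed little between libraries, from 14089739 to 20036998 mapped fragments per library as rebuilt from the steps of the FPKM values. The 2 shallowest libraries, vehicle ribosome 2 and Aβ ribosome 1, also listed the fewest genes above 0, at 15079 and 15566, against up to 17076 in the others. The same 2 libraries differed from each other more than the other pairs did, with a median absolute difference over all genes of 0.330 on the log2 scale, compared with 0.126 and 0.104 in the ribosome pairs of run 2 and run 3. The members rested on 220 to 127340 fragments in a library. Only Slc1a2 in vehicle ribosome 2, with 220 fragments, had a 95% exact Poisson interval wider than 10% on each side of the count (13.5%), and these intervals cover counting error only. The extract protocol states that 3 samples had less RNA and were captured with other beads, and it does not name them, so the part of this step in any value was not tested.

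Apoe (ENSRNOG00000018454) dominated the set. It encodes apolipoprotein E, the lipid carrier that astrocytes secrete, and it ranked between 6 and 15 among 25424 genes by FPKM in every library. All levels that follow are scaled FPKM, in which each library was divided by a size factor so that the typical gene has the same level everywhere. They are therefore levels relative to the typical gene, and neither shares of the RNA in a fraction nor amounts per cell. In the 6 total libraries the members ranked by median as Apoe, Gfap, S100b, Slc1a3, Slc1a2, Aqp4 and Vim. The medians ran from 2614 for Apoe and 392 for Gfap down to 79.8 for Vim. Neighbours in this order overlapped over the 6 libraries, except that Apoe stood clear of Gfap and Slc1a3 stood clear of Slc1a2. In the 6 ribosome libraries the order was Apoe, S100b, Slc1a3, Gfap, Aqp4, Vim and Slc1a2, from a median of 4092 for Apoe and 626 for S100b down to 35.5 for Slc1a2. Here Apoe stood clear of S100b and S100b of Slc1a3, and the remaining neighbours overlapped. Slc1a2 was thus the fifth of the set in total RNA and the last in the ribosome fraction. Levels per length rest on the transcript lengths behind the FPKM, which were 1144 bases for Apoe, 1705 for Slc1a2 and 4928 for Aqp4.

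**Figure D1:**
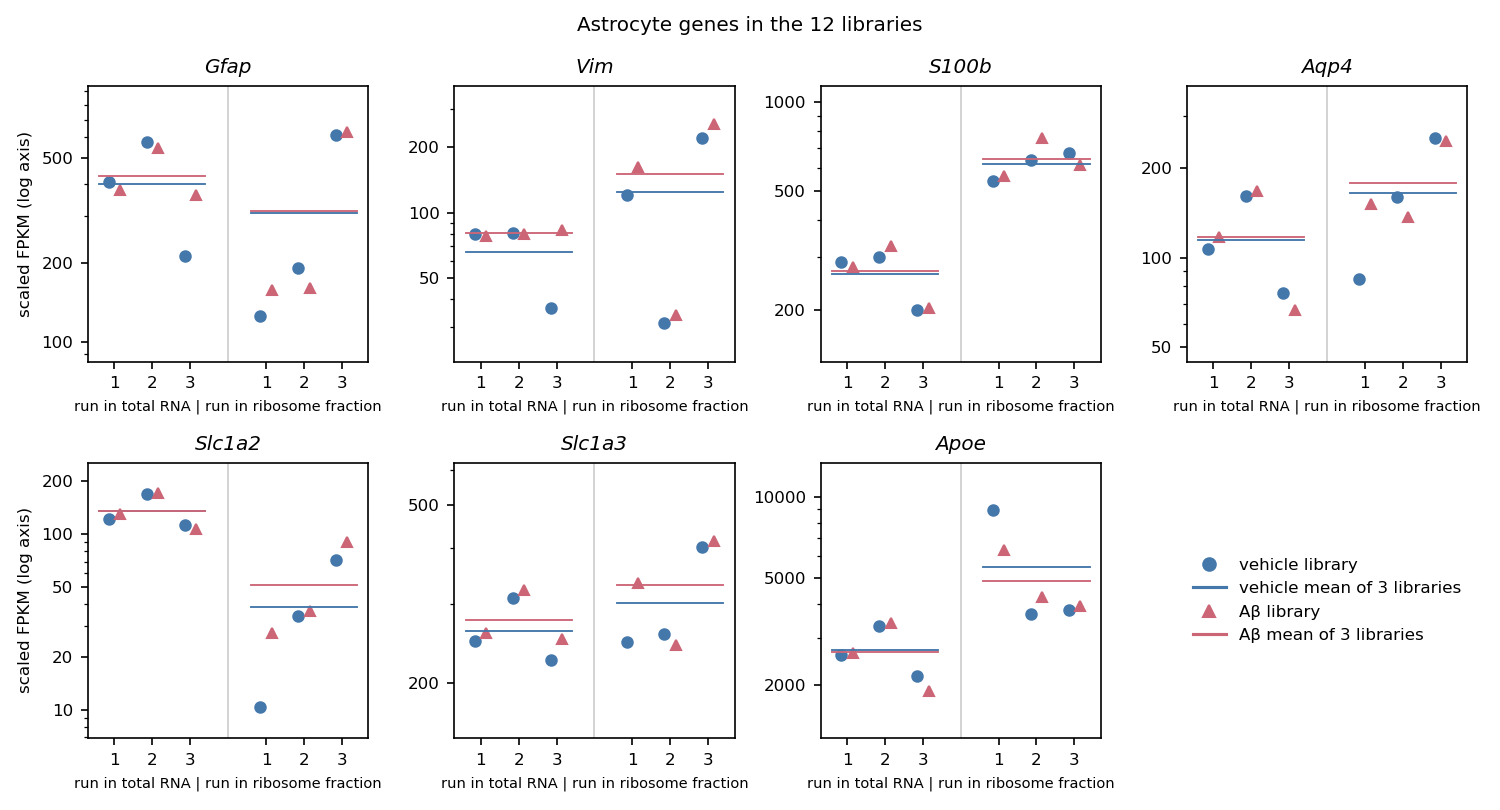
Scaled FPKM (log axis) of each gene in each of the 12 libraries, with runs 1 to 3 of total RNA on the left and of the ribosome fraction on the right of each panel. Circles are vehicle and triangles Aβ libraries, and lines are means of 3 libraries. S100b and Apoe lie higher and Slc1a2 lower in all 6 ribosome libraries than in every total library. Such a separation, in either direction, was seen in 39.7% of all genes tested. Gfap and Vim cross the total range.

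The first question was which astrocyte mRNAs are over- or under-represented in the ribosome fraction against total RNA, within each treatment. S100b was higher in the ribosome fraction by about 2.4 times in both treatments, and Slc1a2 was lower by 4.37 times in vehicle and 2.94 times in Aβ. The other 5 genes did not pass the test in either treatment. Thus 2 of 7 members passed in vehicle and the same 2 genes passed in Aβ, where 32.3% of all genes tested passed in vehicle (15.9% higher and 16.4% lower in the ribosome fraction) and 41.1% in Aβ (19.6% higher and 21.5% lower), so the number of members that differed was not above that of genes in general. The tests were limma fits over 12150 genes with Benjamini-Hochberg adjustment at 0.05, and fold changes are on the log2(scaled FPKM + 1) scale. The study speaks of biological replicates, but the labels do not tie each library to a culture or dissection, so the p-values measure the spread between these libraries, whatever its source.

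S100b (ENSRNOG00000001295) encodes a small calcium-binding protein that astrocytes hold and release. In vehicle total RNA its scaled FPKM was 290, 301 and 199.97 in libraries 4, 8 and 12, and in Aβ total RNA it was 278, 327 and 202 in libraries 3, 7 and 11. Pelleted with ribosomes, it was 542, 636 and 673 in vehicle libraries 2, 6 and 10, and 562, 755 and 616 in Aβ libraries 1, 5 and 9. Every ribosome library was above every total library, with a gap from 327 to 542. Across all genes tested, 39.7% showed such a separation of the 6 ribosome from the 6 total libraries, 19.1% with the ribosome fraction above. The log2 difference was 1.24 ± 0.20 (SE; limma adjusted p = 0.00501) in vehicle and 1.27 ± 0.20 (adjusted p = 0.0034) in Aβ. In vehicle the difference was larger than that of 97.6% of genes, and in Aβ than that of 98.9%. Among the members S100b also had the steadiest ribosome values, with an SD of 67.2 around a mean of 617 in vehicle and of 99.3 around 644 in Aβ (n = 3 each). Leaving out the run 2 libraries (total 8 and ribosome 6), an alternative chosen after seeing the data, kept the vehicle difference at 1.32 but raised its adjusted p to 0.0888.

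Slc1a2 (ENSRNOG00000005479) and Slc1a3 (ENSRNOG00000016163) encode the glutamate transporters GLT-1 and GLAST, which clear glutamate from around synapses. GLT-1 is the form that dominates in the mature forebrain, whereas GLAST appears earlier in development and in radial glia. Slc1a2 was at 123, 170 and 113 in vehicle total libraries 4, 8 and 12, and at 131, 171 and 108 in Aβ total libraries 3, 7 and 11. In the ribosome fraction it was at 10.3, 34.3 and 71.5 in vehicle libraries 2, 6 and 10 and at 27.5, 36.7 and 89.9 in Aβ libraries 1, 5 and 9. No ribosome library reached the lowest total library, a separation in the downward direction that 20.6% of all genes showed. The highest ribosome values were the 2 of run 3. The log2 difference was -2.13 ± 0.59 (adjusted p = 0.0299 by limma) in vehicle and -1.55 ± 0.40 (adjusted p = 0.0181) in Aβ. Only 0.708% of genes had a lower value in vehicle and 1.60% in Aβ. The direction was kept in all 19 alternatives of each treatment, from -2.86 to -1.41 in vehicle and from -2.20 to -1.21 in Aβ. The call, however, turned on single libraries. It was lost in vehicle without total library 4 (adjusted p = 0.0745), total library 8 (0.0957), total library 12 (0.0731) or ribosome library 6 (0.0787), and in Aβ without total library 3 (0.0535), total library 7 (0.0634) or ribosome library 5 (0.0620). Without vehicle ribosome library 2, the library with 220 fragments, the vehicle difference was -1.41 with an adjusted p of 0.0143.

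Slc1a3 did not follow Slc1a2. Its vehicle total values were 249, 310 and 226 in libraries 4, 8 and 12 and its Aβ total values were 258, 322 and 251 in libraries 3, 7 and 11. Its ribosome values were 247, 257 and 403 in vehicle libraries 2, 6 and 10 and 335, 243 and 415 in Aβ libraries 1, 5 and 9. The fractions overlapped, although 3 ribosome libraries, both of run 3 and Aβ library 1, lay above every total library. The log2 difference of 0.18 ± 0.23 in vehicle had an interval from -0.35 to 0.71 (limma adjusted p = 0.561), and that of 0.23 ± 0.21 in Aβ one from -0.25 to 0.71 (adjusted p = 0.401). The direction depended on the scaling, since the mean ribosome level was 1.18 times the total level in scaled FPKM and 0.957 times in FPKM as deposited. As deposited, the median gene was lower in the ribosome fraction by a log2 difference of -0.30 in vehicle and -0.23 in Aβ, a shift that the size factors remove.

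The ratio of the transporters within a library is free of that scaling. Slc1a2 stood at 0.429 to 0.547 of the FPKM of Slc1a3 in the 6 total libraries, which was the narrowest of the 3 ratios computed. In the 6 ribosome libraries it stood at 0.0418 to 0.217, with the lowest value in vehicle library 2 and the highest in Aβ library 9. The ranges did not overlap, and how often the ratios of other gene pairs part in this way was not computed. Within the ribosome fraction the ratio was lowest in run 1, at 0.0418 and 0.0819, intermediate in run 2, at 0.133 and 0.151, and highest in run 3, at 0.178 and 0.217.

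**Figure D2:**
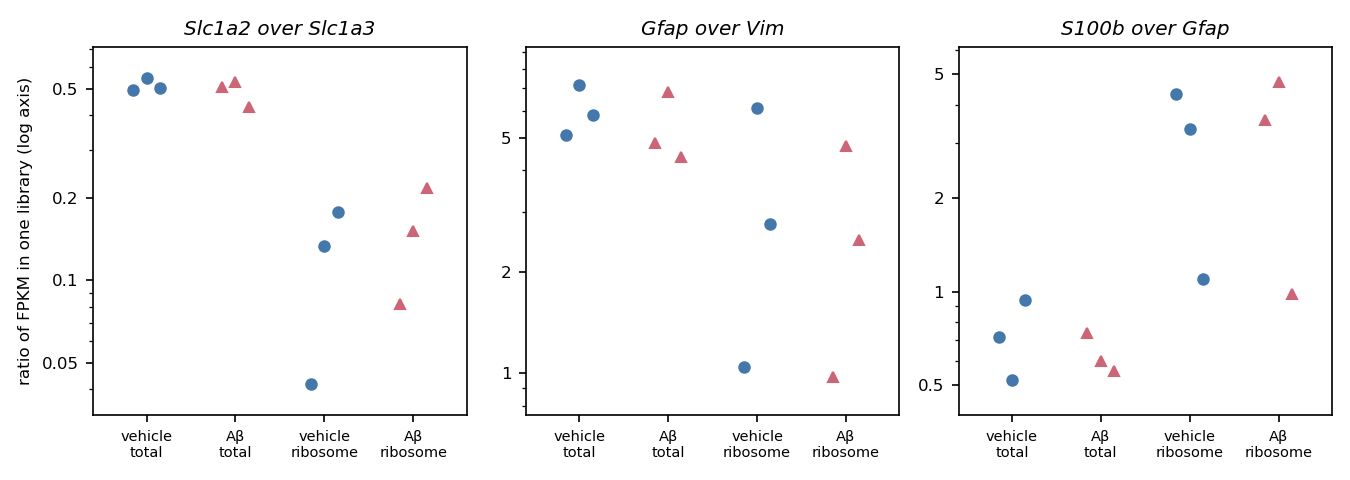
Ratio of FPKM of 2 members within each library (log axis), for 3 libraries of each group, circles for vehicle and triangles for Aβ, in the order of their numbers. Slc1a2 over Slc1a3 is 0.429 to 0.547 in total RNA and 0.0418 to 0.217 in the ribosome fraction. S100b over Gfap does not overlap between fractions either, with 0.941 as the highest total and 0.980 as the lowest ribosome value. Gfap over Vim overlaps between fractions.

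Gfap (ENSRNOG00000002919) and Vim (ENSRNOG00000018087) encode intermediate filament proteins. Glial fibrillary acidic protein is the standard marker of astrocytes and of their reactive state, and vimentin is shared with radial glia, fibroblasts and endothelial cells. Gfap was at 406, 577 and 213 in vehicle total libraries 4, 8 and 12 and at 378, 546 and 364 in Aβ total libraries 3, 7 and 11. In the ribosome fraction it was at 126, 191 and 614 in vehicle libraries 2, 6 and 10 and at 157, 160 and 628 in Aβ libraries 1, 5 and 9. The first 4 of these ribosome libraries by number lay below every total library, and the 2 libraries of run 3 lay above every one. The log2 difference was therefore uncertain, at -0.58 ± 0.59 in vehicle (limma adjusted p = 0.475) and -0.75 ± 0.50 in Aβ (adjusted p = 0.268). Without the libraries of run 3, which was chosen after seeing the data, Gfap passed as lower in the ribosome fraction in vehicle (-1.64, adjusted p = 0.0188) and in Aβ (-1.51, adjusted p = 0.0103). Leaving out Aβ ribosome library 9 alone gave -1.40 with an adjusted p of 0.00216, and leaving out vehicle ribosome library 10 alone gave -1.24 with an adjusted p of 0.0513.

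Vim was at 80.03, 80.7 and 36.4 in vehicle total libraries 4, 8 and 12 and at 78.4, 79.6 and 83.1 in Aβ total libraries 3, 7 and 11. Except for library 12, its total values thus lay within 5 units of each other. Its ribosome fraction values were 121, 31.0 and 221 in vehicle libraries 2, 6 and 10 and 161, 33.9 and 254 in Aβ libraries 1, 5 and 9. The 2 libraries of run 2 lay below every total library and the other 4 lay above every one. The log2 difference was 0.60 ± 0.67 in vehicle (limma adjusted p = 0.514) and 0.47 ± 0.63 in Aβ (adjusted p = 0.572). In Aβ, leaving out ribosome library 5 made Vim pass as higher in the ribosome fraction (1.32, adjusted p = 0.00624). In vehicle, weighting the libraries by their agreement with the fit (limma array weights) turned the direction to -0.99 (adjusted p = 0.0341).

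The filament genes parted from each other in the ribosome fraction. The FPKM of Gfap was 4.38 to 7.15 times that of Vim in the 6 total libraries. Among ribosome libraries it was 1.04 and 0.975 times in run 1, 6.14 and 4.72 times in run 2, and 2.78 and 2.48 times in run 3. The ribosome range of 0.975 to 6.14 overlapped the total range, and the libraries of 1 run lay close to each other whatever their treatment. The ratio of S100b to Gfap was 0.522 to 0.941 in total RNA and 0.980 to 4.71 in the ribosome fraction, where the 2 libraries of run 3 were the lowest, at 1.096 and 0.980.

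Aqp4 (ENSRNOG00000016043) encodes aquaporin-4, the water channel of astrocyte end-feet. It was at 107, 161 and 75.8 in vehicle total libraries 4, 8 and 12 and at 117, 168 and 66.9 in Aβ total libraries 3, 7 and 11. Its ribosome values were 84.5, 159 and 252 in vehicle libraries 2, 6 and 10 and 152, 137 and 247 in Aβ libraries 1, 5 and 9. The fractions overlapped, with only the 2 run 3 ribosome libraries above every total library. The log2 difference was 0.46 ± 0.42 in vehicle (limma adjusted p = 0.422) and 0.65 ± 0.35 in Aβ (adjusted p = 0.167).

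Apoe was at 2593, 3323 and 2163 in vehicle total libraries 4, 8 and 12 and at 2635, 3400 and 1906 in Aβ total libraries 3, 7 and 11. After the cushion it was at 8918, 3672 and 3797 in vehicle libraries 2, 6 and 10 and at 6366, 4255 and 3929 in Aβ libraries 1, 5 and 9. Every ribosome library was above every total library in scaled FPKM, as was so for 19.1% of all genes tested. Its highest values were the 2 ribosome libraries of run 1. In FPKM as deposited 9.07% of all genes had every ribosome library above, and Apoe was not among them, as vehicle ribosome 6 was at 3035 and Aβ total 7 at 3862. The log2 difference was 0.91 ± 0.39 in vehicle (limma adjusted p = 0.106) and 0.88 ± 0.30 in Aβ (adjusted p = 0.0511), neither of which passed. The intervals before adjustment, 0.02 to 1.81 and 0.17 to 1.59, lay above 0. In Aβ the call turned on the setting, as the gene passed by limma-voom on the recovered fragments (adjusted p = 0.0208), by eBayes without trend (0.0330), with a filter at a mean FPKM of 5 (0.0342) and without ribosome library 9 (0.0477), while over all 19 alternatives its adjusted p ran from 0.0208 to 0.246.

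**Figure D3:**
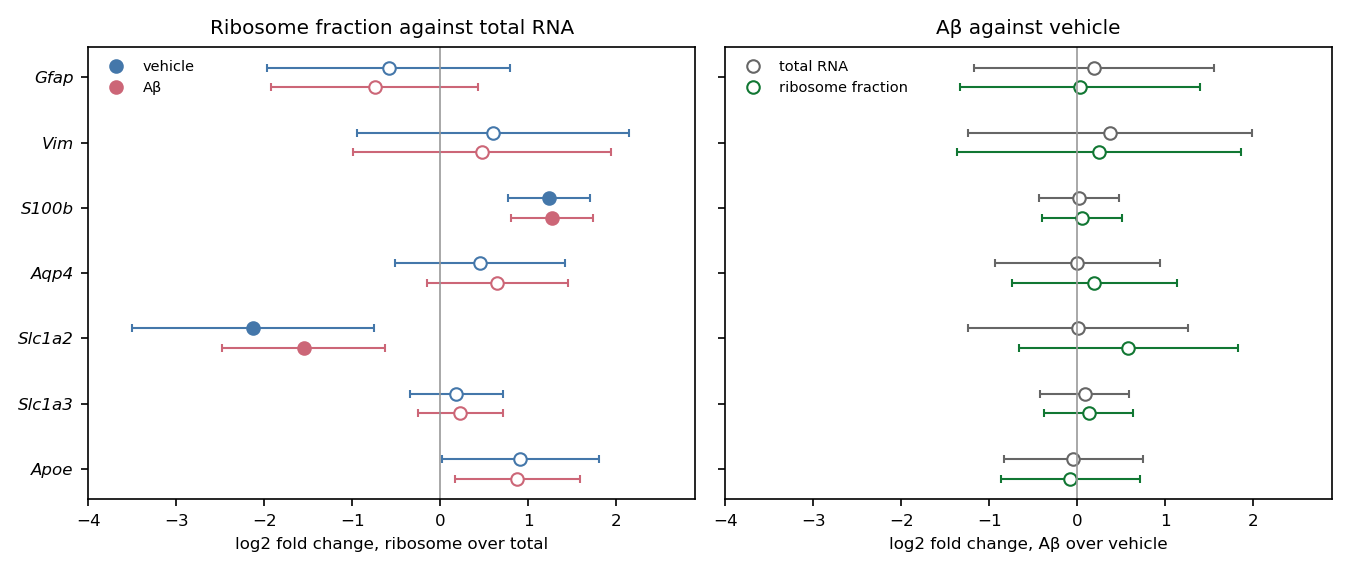
Log2 fold change of each gene with its 95% interval from limma, on the log2(scaled FPKM + 1) scale: left, ribosome fraction over total RNA in vehicle and Aβ; right, Aβ over vehicle in total RNA and the ribosome fraction. Filled points passed an adjusted p of 0.05; S100b (1.24 and 1.27) and Slc1a2 (-2.13 and -1.55) are filled on the left, and all points on the right are open.

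The second question was whether Aβ altered these mRNAs in either fraction. No member passed in total RNA or in the ribosome fraction, and no gene of the 12150 did (0.0% in both). At an unadjusted p under 0.05, limma gave 20 genes in total RNA (0.165%) and 178 in the ribosome fraction (1.47%), and none of them was a member, since the smallest unadjusted p among the members was 0.623 in total RNA and 0.328 in the ribosome fraction. In total RNA the log2 difference of Aβ from vehicle ran from -0.04 for Apoe to 0.37 for Vim, and in the ribosome fraction from -0.07 for Apoe to 0.58 for Slc1a2. In total RNA 27.6% of genes lay below Apoe and 99.3% below Vim, and in the ribosome fraction 30.8% below Apoe and 99.3% below Slc1a2. The total RNA pairs of Vim in runs 1 to 3 differed by -0.03, -0.02 and 1.17. The ribosome pairs of Slc1a2 differed by 1.33, 0.10 and 0.33. For Gfap, the classical marker of reactive astrocytes, the difference was 0.20 in total RNA, with an interval from -1.17 to 1.56, and 0.04 in the ribosome fraction, with an interval from -1.33 to 1.40. Leaving out single libraries moved the total value from -0.20 (without vehicle library 12) to 0.52 (without vehicle library 8), and the ribosome value from -0.62 (without Aβ library 9) to 0.70 (without vehicle library 10). These intervals hold a change of 2 times in either direction, but they count the differences between runs as error. They also rest on a spread shared by both fractions, which makes them equally wide in each. Within groups, the SD of Gfap on the log2 scale was 0.73 and 0.32 in vehicle and Aβ total RNA. It was 1.18 and 1.14 in the vehicle and Aβ ribosome groups. The runs were also fitted as a block within each fraction, a pairing assumed from the sample numbers and chosen after seeing the data. The intervals for Gfap were then -0.24 to 0.64 in total RNA and -0.41 to 0.48 in the ribosome fraction, and again no member passed. They rest on the assumed pairing and on a spread shared by both fractions, so they do not exclude a change of 2 times. The Gfap pairs in total RNA differed by -0.10, -0.08 and 0.77. With the planned block of runs, common to both fractions, limma gave Gfap an unadjusted p of 0.755 in total RNA and 0.955 in the ribosome fraction. Over the 7 members and 20 alternatives each, the direction turned in 26 of 140 cases in total RNA and 21 of 140 in the ribosome fraction, and no member passed in any. Without the block the intervals were narrowest for S100b, from -0.43 to 0.48 in total RNA and from -0.40 to 0.51 in the ribosome fraction, and next for Slc1a3, from -0.42 to 0.59 and from -0.37 to 0.64.

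Whether the difference between fractions itself changed with Aβ was tested as an interaction. No member and no gene passed (0.0%), and 84 genes (0.691%) had an unadjusted p under 0.05 in limma. The interaction was largest for Slc1a2, at 0.57 with an interval from -1.19 to 2.34, as its deficit in the ribosome fraction was 4.37 times in vehicle and 2.94 times in Aβ. Without the ribosome pair of run 1, in which vehicle library 2 held 10.3 and Aβ library 1 held 27.5, the ribosome values of vehicle and Aβ were 34.3 against 36.7 in run 2 and 71.5 against 89.9 in run 3.

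Aβ and vehicle libraries of the same run and fraction lay close to each other. Over the 7 genes, 2 fractions and 3 runs there were 42 pairs of an Aβ and a vehicle library, and 33 of them differed by less than 0.25 on the log2 scale. The shares of all genes under 0.25 or over 0.5 were not computed, so these counts are not shown to be particular to the members. Over all genes the median absolute difference in a pair was 0.0735 to 0.0995 in total RNA and 0.104 to 0.330 in the ribosome fraction. Over the pairs of the members the median was 0.0713 in total RNA and 0.213 in the ribosome fraction. Aβ was above vehicle in 28 of the 42, but the 7 genes share the same libraries. The share of all genes above was not computed, so no direction is drawn from this count. Only 4 pairs differed by more than 0.5. These were Gfap and Vim in total RNA of run 3 (0.77 and 1.17), where vehicle library 12 was below Aβ library 11 for both, and Aqp4 and Slc1a2 in the ribosome fraction of run 1 (0.84 and 1.33), where vehicle library 2 was below Aβ library 1 for both. In library 12 the other 5 members differed from Aβ library 11 by at most 0.183. All 7 members were lower in library 12 than in the other vehicle total libraries, 4 and 8, and the share of all genes that were so was not computed.

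By contrast, the runs differed widely. In total RNA all 7 members were highest in run 2 and lowest in run 3, by means of the 2 libraries of a run. In the ribosome fraction Gfap, Aqp4, Slc1a2, Slc1a3 and Vim were highest in run 3, Apoe in run 1 and S100b in run 2. Run 3 was therefore the lowest for all members in total RNA and the highest for 5 of 7 in the ribosome fraction. The share of all genes with these run orders was not computed, so they are not shown to be particular to the members. The range between run means exceeded every difference between Aβ and vehicle within a run for 6 of 7 members in total RNA, where 58.1% of all genes showed this, and for 7 of 7 in the ribosome fraction, where 54.8% did. The exception was Vim in total RNA, because of library 12. Run means of the ribosome fraction differed by 7.11 times for Vim, 4.52 times for Slc1a2 and 4.39 times for Gfap, ranges larger than those of more than 99% of genes. They differed by only 1.25 times for S100b, a range larger than that of 34.5% of genes. Each run held a library of every group, so a difference that the 2 libraries of a run and fraction share falls on both vehicle and Aβ. Not every difference was shared. In total RNA of run 3, Vim was at 36.4 in vehicle and at 83.1 in Aβ. What sets the runs apart was not tested.

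The same spread appeared within groups. Taking the SD of log2 values over the 3 libraries of a group, the members exceeded the median SD of all genes in 26 of 28 combinations of gene and group, the 90th percentile in 19 and the 99th percentile in 7. The 2 combinations below the median were Vim in Aβ total RNA (0.04, against a median of 0.11) and S100b in vehicle ribosome (0.16, against 0.30). The largest were Vim in both ribosome groups, at 1.43 in vehicle and 1.502 in Aβ, and Slc1a2 in vehicle ribosome, at 1.35. Slc1a3 had an SD of 0.20 to 0.39 in the 4 groups and passed the 90th percentile in none of them.

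**Figure D4:**
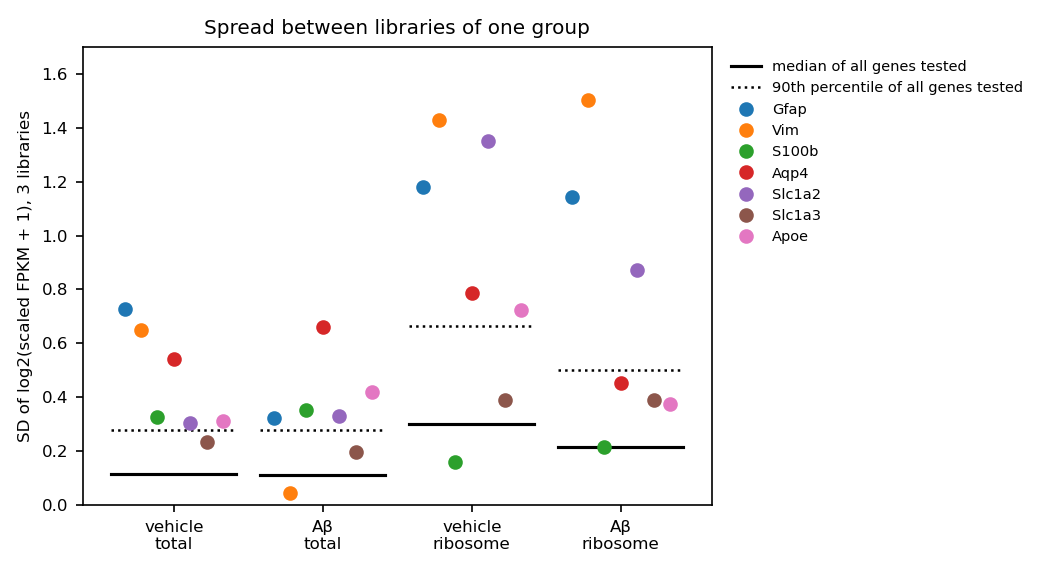
SD of log2(scaled FPKM + 1) over the 3 libraries of each group for the 7 genes (points), with the median (solid line) and the 90th percentile (dotted line) of the 12150 genes tested. Of the 28 points 26 lie above the median and 19 above the 90th percentile, Vim, Slc1a2 and Gfap being the highest in the ribosome groups.

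Finally, genes outside the set were ranked by their likeness to it, taken as Pearson's r over the 12 libraries between the log2 value of a gene and the mean standardised log2 value of the 7 members. The most alike were ENSRNOG00000016090 (r = 0.976, mean FPKM 6.21) and ENSRNOG00000021087 (r = 0.967, mean FPKM 2.56), for which no gene name was at hand. Among the members themselves r with this mean ran from 0.970 for Slc1a3 and 0.907 for Aqp4 through 0.776 for Vim, 0.616 for Gfap, 0.516 for S100b and 0.311 for Apoe to 0.123 for Slc1a2. Each member is itself part of this mean, which raises its r, so its value cannot be set beside those of outside genes. The 12 points share fractions and runs, so all these values describe the profiles and were not tested.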

How the data were processed

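Polyadenylated RNA of 12 libraries was sequenced. Per the labels, paired-end reads were aligned by TopHat 2.0.12 using a Bowtie 2.2.3 index. The study's methods add that HTSeq 0.6.1 in union mode counted fragments, and the authors deposited FPKM per library. Genome build, annotation and strand setting are not given in the sources used here. The incomplete last row of 25425 was dropped. None of the Ensembl identifiers matched the RefSeq tables, so symbols are those supplied with the 7 identifiers, and other marker genes were not analysed here.

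Size factors (median of ratios) scaled the FPKM, a pseudocount of 1 was added, and genes averaging 1 FPKM or more were fitted on the log2 scale by limma 3.58.1 (R 4.3.3, eBayes with trend, Benjamini-Hochberg over 12150 genes, threshold 0.05). Each treatment had its own fit of 6 libraries for the fractions; Aβ against vehicle and the interaction shared a fit of 12. Whole fragments were recovered from the FPKM steps for 99.98% of the genes tested, and the code was tested on simulated data. DESeq, which the study ran on counts, was not used. Members, lists and tests were chosen with earlier results of these data known. Named genes were the members and the 2 genes most like them. Alternatives covered scaling (as deposited, upper quartile), pseudocount (0.1), filter, array weights, trend, limma-voom on recovered fragments, a joint fit, each library left out, and runs as a block or left out. Python 3.11.15 did the remaining computations.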

Additional observations from a re-analysis of the deposited data

How the results depend on the processing

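In vehicle, 2 of 7 members passed between fractions; the number was 1 without a filter on low values (S100b), 6 with limma array weights (all but Slc1a3), 0 when the libraries of run 2 were left out, and 3 (Gfap added) when those of run 3 were, while leaving out single libraries gave 1 to 2. With array weights Vim turned to -0.99. In Aβ, the number was again 2, and 1 without a filter, 1 in one fit over 12 libraries (Slc1a2 adjusted p = 0.0512) and 1 without the libraries of run 1 (S100b in each), and 3 with a mean FPKM of at least 5, without trend and by limma-voom (Apoe added) and without run 3 (Gfap added); leaving out single libraries gave 1 to 4. Without the libraries of run 2 the number in Aβ stayed at 2, but Vim passed (1.32, limma adjusted p = 0.0293) in place of Slc1a2 (adjusted p = 0.154). For each of these the cause was not tested, except that fits with libraries left out have fewer samples. S100b passed in 18 of 19 alternatives in vehicle and 19 of 19 in Aβ, and Slc1a2 in 13 and 12. Using runs as a replicate block, a pairing assumed from the sample numbers, left 2 members passing in each treatment (S100b and Slc1a2; adjusted p of Slc1a2 0.00773 and 0.0203). Between Aβ and vehicle, and in the interaction, 0 members passed under every alternative run; with the runs as a block within each fraction, chosen after seeing the data, the smallest unadjusted p was 0.0253 (Slc1a2, ribosome fraction, adjusted p = 0.695 by limma) and still 0 members passed. Of 28 group means, 2 moved by more than 1 SD in FPKM as deposited, S100b in vehicle ribosome to 549 and Vim in Aβ total RNA to 89.9. Every member had at least 220 fragments in every library.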
